A study of Mus musculus with 8 samples.

Results

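The genes described here are 40 members of the secretory machinery and of the unfolded protein response (UPR) of the endoplasmic reticulum (ER), followed through plasma, germinal centre and activated B cells of mice with and without Eif3e in activated B cells. They were taken by symbol from a given list, and all 40 were found among the 32285 genes of the count matrices. By role they fall into 11 ER chaperones and cochaperones, 4 protein disulphide isomerases, 9 genes of ER-associated degradation, 2 UPR sensors (Atf6 and Ern1), 7 genes of the Sec61 translocon and its associated TRAP complex, 4 of the signal peptidase complex and 3 of the oligosaccharyltransferase.

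A secreted protein such as an antibody chain is threaded into the ER through the Sec61 channel, loses its signal peptide to signal peptidase and receives its sugars from the oligosaccharyltransferase. Chaperones and disulphide isomerases then fold it, and chains that fail to fold are pulled back out and degraded. When unfolded chains accumulate, the sensors IRE1 (encoded by Ern1), ATF6 and PERK (encoded by Eif2ak3) act through the transcription factors XBP1, cleaved ATF6 and ATF4. Plasma cells, which secrete antibody in bulk, are known for an enlarged ER and for their dependence on Xbp1.

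Spleen cells of 2-month-old mice had been sequenced one by one with a droplet kit that reads the 3′ ends of transcripts. The cKO mice were Eif3e fl/fl Cγ1Cre Rosa26-YFP LSL, and the control mice were Cγ1Cre Rosa26-YFP LSL, so that both genotypes carried the Cre and the reporter. Cγ1Cre is switched on by transcription of the immunoglobulin γ1 region in activated B cells, and YFP marks cells in which Cre has acted. Each genotype gave 2 libraries of total live cells and 2 of sorted YFP+ cells, each library from the pooled cells of several mice, and the labels number the libraries of each group 1 and 2 by batch.

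The libraries held 71894780 to 105224903 unique molecular identifiers (UMIs, counted molecules), with 5250 to 6810.5 UMIs in the median cell, and no pair of libraries shared more than 102 cell barcodes. Cell classes were rebuilt by clustering without the 40 genes or the other genes of the pathway, so they are called plasma cell-like, GCB-like (germinal centre B), pre-GCB-like (activated B) and naive B-like, and a value can differ from the study's because the names were rebuilt. In the plasma cell-like class Jchain stood at 20547 to 31088 counts scaled to 1e6 UMIs (CPM) in the 8 libraries, in the GCB-like class Mef2b at 187 to 294 CPM, and in the pre-GCB-like class Myc at 128 to 293 CPM (41.3 to 66.0 CPM in the GCB-like class). The YFP+ libraries contained 893 and 1048 control plasma cell-like cells against 99 and 98 in cKO, 1644 and 3413 control GCB-like cells against 372 and 215, and 270 and 287 control pre-GCB-like cells against 1408 and 1463. Values below are therefore summed over unequal numbers of cells, and in such sums a change in the cells that make up a class and a change in RNA within each cell cannot be told apart. Eif3e itself, a subunit of translation initiation factor eIF3, was at 227 and 267 CPM over all cells of the control YFP+ libraries and at 235 and 280 CPM in cKO. Which exons are floxed was not given, so the counted 3′ end may lie outside the deleted stretch and these counts do not check the genotype.

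Letters of known UPR elements were found in front of the RefSeq start of 10 of the 40 genes, and the sequences are given first. The ER stress response element (ERSE: CCAAT, 9 bases of any kind, then CCACG) was searched on both strands of the 250 bases before each RefSeq start (GRCm38.p6). It was present in 9 of the 31 members whose promoter was available (29.0%), against 0.130% of all 27025 gene symbols. ERSE-II (ATTGG, 1 base of any kind, then CCACG) was present in 1 member, Herpud1 (3.23%), against 0.0370% of symbols, and the UPR element TGACGTGG in 0 members against 0.603%. The 3 patterns share the letters CCACG, read on one strand or the other, and no promoter among the members held both ERSE and ERSE-II. Hsp90b1 held 2 ERSE matches and the other members 1 each. Such a match is a description of letters and not evidence of binding. The members were listed as UPR and secretory genes, and the patterns are known UPR elements. Their shares beside all symbols are therefore a description and not a test. The pieces are printed 5′ to 3′ on the strand of the gene with the element in capitals, so that an element on the opposite strand reads as CGTGG and ATTGG. For Hsp90b1 the match nearer to the start is shown. In the GENCODE vM21 annotation Hspa5 spans chr2:34771970-34777547, so its piece lies inside the annotated gene and overlaps an exon.
Hspa5 (chr2:34772020-34772048, plus strand): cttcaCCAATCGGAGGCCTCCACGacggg
Hsp90b1 (chr10:86705528-86705556, minus strand): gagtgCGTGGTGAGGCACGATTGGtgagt
Calr (chr8:84847070-84847098, minus strand): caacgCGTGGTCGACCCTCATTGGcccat
Canx (chr11:50325795-50325823, minus strand): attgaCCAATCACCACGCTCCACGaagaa
Creld2 (chr15:88819515-88819543, plus strand): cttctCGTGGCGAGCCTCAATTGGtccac
Dnajc3 (chr14:118937822-118937850, plus strand): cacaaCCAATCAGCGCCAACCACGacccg
Pdia6 (chr12:17266486-17266514, plus strand): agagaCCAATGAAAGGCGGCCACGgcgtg
Syvn1 (chr19:6046527-6046555, plus strand): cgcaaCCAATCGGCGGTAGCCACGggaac
Derl3 (chr10:75893237-75893265, plus strand): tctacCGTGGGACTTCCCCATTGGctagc
Herpud1 (chr8:94386372-94386392, plus strand): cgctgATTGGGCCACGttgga

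Of these 10 genes, Calr, Creld2 and Derl3 carried a genotype difference that passed the test in activated B cells, described further on, so the 150 bases that hold the element and run on towards the start are given for each, with the element again in capitals. Calr and Creld2 were the higher ones in cKO and Derl3 the lower one, and in all 3 the element lies on the strand opposite to the gene. Among the 21 members without a match 1 was called lower, and among the 9 without an available promoter 1 higher and 1 lower. The share over all genes is given further on, and a link between element and genotype difference was not tested.
Calr (chr8:84846944-84847093, minus strand): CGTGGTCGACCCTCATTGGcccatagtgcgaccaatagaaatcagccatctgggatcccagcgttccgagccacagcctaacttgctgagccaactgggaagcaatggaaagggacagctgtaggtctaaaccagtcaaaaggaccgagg
Creld2 (chr15:88819496-88819645, plus strand): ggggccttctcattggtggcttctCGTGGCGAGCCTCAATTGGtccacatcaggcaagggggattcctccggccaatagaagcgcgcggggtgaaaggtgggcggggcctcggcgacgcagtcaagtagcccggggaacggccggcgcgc
Derl3 (chr10:75893242-75893391, plus strand): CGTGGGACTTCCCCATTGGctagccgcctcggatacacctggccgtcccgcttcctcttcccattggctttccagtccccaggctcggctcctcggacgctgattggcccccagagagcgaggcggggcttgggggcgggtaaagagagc

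The 40 genes together were most abundant in plasma cell-like cells of either genotype. In the control YFP+ libraries they summed to 22961 and 31928 CPM of all UMIs in plasma cell-like cells, to 6525 and 7192 CPM in pre-GCB-like cells, to 5006 and 5500 CPM in GCB-like cells and to 3288 and 4233 CPM in naive B-like cells. In cKO YFP+ libraries the same sums were 20966 and 28382 CPM in plasma cell-like, 6897 and 7458 CPM in pre-GCB-like, 5371 and 5461 CPM in GCB-like and 3553 and 4287 CPM in naive B-like cells. Plasma cell-like cells stood apart from every other class in both genotypes, while in YFP+ libraries the genotypes overlapped within each of the 4 classes. In total libraries the plasma cell-like sums did not overlap, at 19705 and 24983 CPM in control and 26809 and 37831 CPM in cKO. Those of the other classes did, as did the total plasma cell-like sums taken over UMIs outside immunoglobulin genes. These levels describe classes that were defined on the same cells, so no test was made between classes. Immunoglobulin genes took 30.4% to 35.6% of the UMIs of YFP+ plasma cell-like cells, and with CPM taken over the remaining UMIs the plasma cell-like sums were 35667 and 46896 CPM in control and 31075 and 40808 CPM in cKO.

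**Figure D1:**
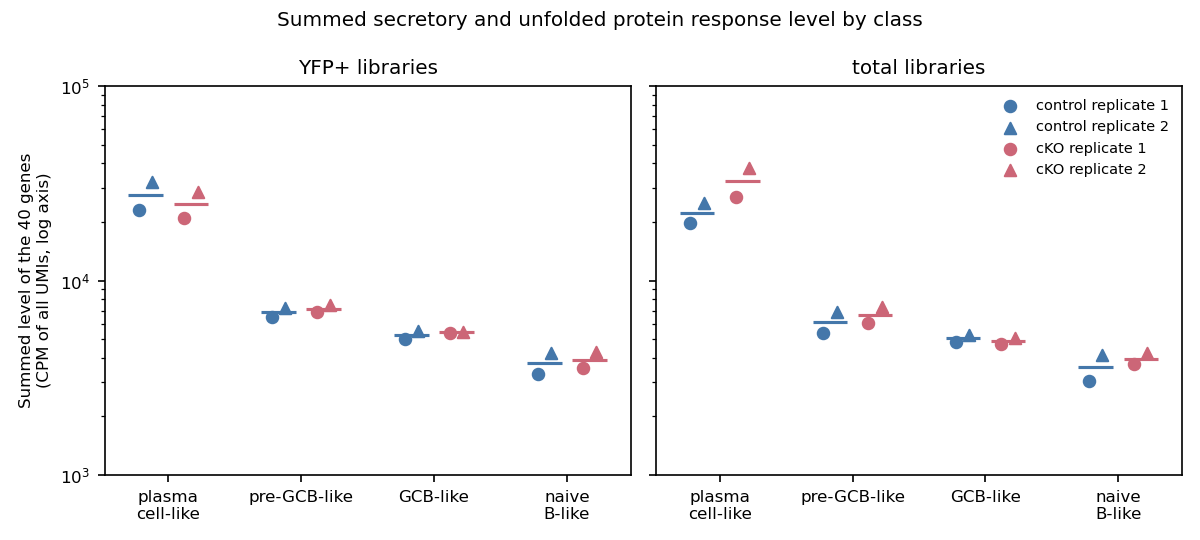
Summed level of the 40 genes in 4 cell classes, in CPM of all UMIs on a log axis, for YFP+ libraries (left) and total libraries (right). Each point is 1 library (circle, replicate 1; triangle, replicate 2), and each bar is the mean of the 2 libraries of a genotype. All 8 plasma cell-like sums lie between 19705 and 37831 CPM, above every sum of the other classes, and replicate 2 lies above replicate 1 in each class and genotype.

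Most of the 40 genes shared this order, but not to the same degree. Per gene, the level in control YFP+ plasma cell-like cells was higher than in GCB-like cells of the same library in both libraries for 39 of 40 members, with a median ratio of 4.08. Against pre-GCB-like cells it was higher for 39 members with a median ratio of 4.04, and against naive B-like cells for all 40 with a median ratio of 5.30. The widest ratio over GCB-like cells belonged to Pdia4, a disulphide isomerase, at 24.9 and 30.3 in the 2 libraries. Hsp90b1, the ER-resident HSP90 chaperone, followed at 16.8 and 25.4, and Ern1 at 16.7 and 24.2. Derl3, a channel component for retrieving misfolded chains, reached 62.9 and 65.8 over naive B-like cells. At the other end stood Syvn1, the ubiquitin ligase of ER-associated degradation, at 1.12 and 1.12 over GCB-like cells. Canx, the membrane-bound lectin chaperone, was the 1 gene below its pre-GCB-like level in both control libraries, at 0.767 and 0.862, and over the UMIs outside immunoglobulin genes this ratio turned to 1.18 and 1.25. The cKO YFP+ libraries had median ratios of 3.86 over GCB-like, 3.54 over pre-GCB-like and 4.72 over naive B-like cells, and Canx was again the 1 gene lower in plasma cell-like than in pre-GCB-like cells.

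For each role the gene with the most counted 3′ ends in control YFP+ plasma cell-like cells is given as an example, as mean ± SD of 2 libraries in CPM scaled by the trimmed mean of M-values (TMM), the scale of the genotype tests. These were Hsp90b1 at 6246 ± 2566 CPM among chaperones, Pdia4 at 986 ± 141 CPM among isomerases and Edem1, a mannosidase-like protein that marks misfolded glycoproteins, at 670 ± 64.3 CPM in degradation. Atf6 was at 264 ± 24.3 CPM among the sensors, Sec61b, a small subunit of the channel, at 1816 ± 544 CPM in the translocon, Sec11c, a catalytic subunit of signal peptidase, at 1434 ± 407 CPM, and Ostc at 497 ± 187 CPM in the oligosaccharyltransferase. The count of 3′ ends served to choose these examples, and no order of expression between genes is read from it.

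The first genotype question was whether plasma cell-like cells that remained in cKO YFP+ libraries carried less of this machinery. By edgeR's quasi-likelihood test with Benjamini-Hochberg adjustment over 11487 genes, 0 of the 40 members passed an adjusted p of 0.05, and 0 had an unadjusted p under 0.05, while 75 genes (0.653%) passed overall. DESeq2 also called 0 members (0.832% of its genes), and 0 passed with the batch number as a replicate block (2.19% of genes). Fold changes (log2, cKO over control) were above 0 for 12 members and below 0 for 28, with a median of −0.09 beside −0.03 over all genes tested. Replicate 2 stood above replicate 1 in both genotypes for 33 of the 40 members, as it did for 31.5% of all genes.

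The largest differences among these uncalled members were in Atf6, Ssr1 and Rpn2. Atf6 stood at 281 and 247 CPM in control and 199 and 160 CPM in cKO YFP+ plasma cell-like cells (log2 fold change −0.55, SE 0.28, adjusted p = 0.793, edgeR). Ssr1, the TRAP α subunit, was at 136 and 203 CPM against 117 and 135 CPM (−0.43, SE 0.29, adjusted p = 0.983), and Rpn2, ribophorin II of the oligosaccharyltransferase, at 188 and 253 CPM against 166 and 185 CPM (−0.33, SE 0.28, adjusted p = 1.000). The control and cKO libraries did not overlap in these 3 genes, with cKO lower. Together with Sec61a1, Spcs3 and Syvn1 they made up 6 members with both cKO libraries below both controls. In 0 members both cKO libraries lay above both controls, and over all genes tested the shares were 17.1% and 15.5%.

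The chaperones and isomerases of YFP+ plasma cell-like cells overlapped between the genotypes. Hspa5 (BiP, the main HSP70 of the ER) was at 1178 and 1954 CPM in control and at 968 and 2327 CPM in cKO. Hsp90b1 ran from 4431 to 8060 CPM in control and from 4038 to 6572 CPM in cKO, and Pdia4 from 887 to 1086 CPM and from 841 to 1243 CPM. In each of these genes the 2 replicates of a genotype were further apart than the genotype means. Xbp1 was at 851 and 1205 CPM in control and 948 and 1049 CPM in cKO, and Atf4 at 106 and 122 CPM against 118 and 139 CPM. Of the other genes of the pathway, 99 were tested in this class and 0 passed, 3 at an unadjusted p under 0.05. The summed markers of cycling cells were lower in cKO (1613 and 1177 CPM of all UMIs) than in control (2301 and 2837 CPM), the plasma cell-like cluster with more UMIs per cell held 15.2% and 13.3% of the class in cKO against 25.1% and 35.9% in control, and the summed monocyte markers were at 120 and 27.6 CPM in cKO against 31.7 and 21.6 CPM. Their part in these values was not tested.

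**Figure D2:**
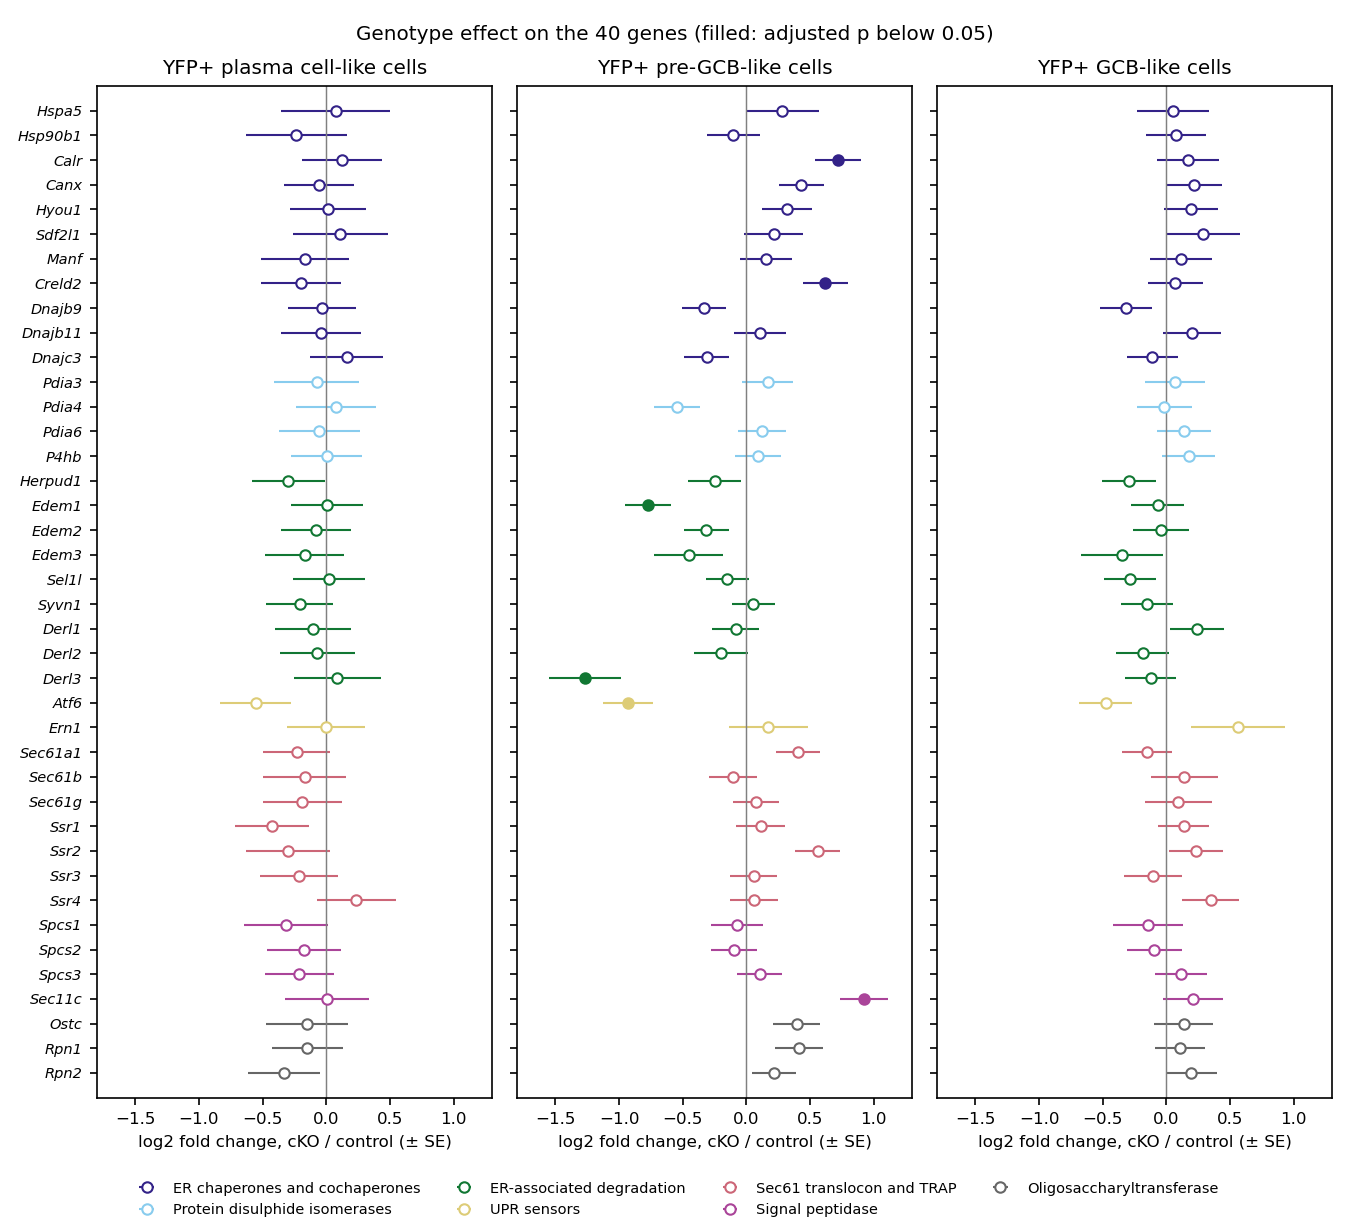
Log2 fold change of cKO over control, with its SE, for each of the 40 genes (rows, ordered and coloured by role) in YFP+ plasma cell-like, pre-GCB-like and GCB-like cells. Filled points passed an adjusted p of 0.05 in edgeR: 0 genes in plasma cell-like and GCB-like cells, and Calr, Creld2, Sec11c (higher) and Edem1, Derl3, Atf6 (lower) in pre-GCB-like cells.

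Activated B cells gave another picture. In YFP+ pre-GCB-like cells 6 of the 40 members passed the test, 3 higher and 3 lower in cKO. Over all 12710 genes of this class 14.2% passed (6.38% higher and 7.81% lower), a share near that of the members. Median log2 fold change was 0.08 over the members and −0.01 over all genes. Among the roles, 2 of 11 chaperones and 1 of 4 signal peptidase genes rose, 2 of 9 degradation genes and 1 of 2 sensors fell, and 0 of the 14 isomerase, translocon and oligosaccharyltransferase genes passed.

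Sec11c was at 205 and 220 CPM in control and 364 and 441 CPM in cKO. Calr (calreticulin, the soluble lectin chaperone, chr8:84841850-84846934 in GENCODE vM21, GRCm38) was at 455 and 429 CPM against 750 and 705 CPM. Creld2, an ER protein of the stress response with disulphide isomerase activity (chr15:88819646-88826683), was at 45.2 and 44.3 CPM against 65.3 and 72.4 CPM. In all 3 genes both cKO libraries lay above both control libraries, with log2 fold changes of 0.92 for Sec11c (SE 0.19, adjusted p = 0.0131), 0.72 for Calr (SE 0.18, adjusted p = 0.0290) and 0.62 for Creld2 (SE 0.18, adjusted p = 0.0477, all edgeR). Within batch 1 and batch 2 the log2 ratios were 0.83 and 1.00 for Sec11c, 0.72 and 0.72 for Calr and 0.53 and 0.70 for Creld2.

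Atf6 (chr1:170704674-170867771) was at 158 and 122 CPM in control and 77.1 and 70.2 CPM in cKO. Edem1 (chr6:108828641-108859356) was at 74.2 and 91.5 CPM against 49.0 and 47.8 CPM. Derl3 (chr10:75893413-75895941) was at 29.2 and 39.6 CPM against 17.9 and 10.5 CPM. These 3 fell, with both cKO libraries below both controls, by 0.93 on the log2 scale for Atf6 (SE 0.19, adjusted p = 0.0142), by 0.77 for Edem1 (SE 0.18, adjusted p = 0.0249) and by 1.27 for Derl3 (SE 0.28, adjusted p = 0.0191, all edgeR). Within batches the log2 ratios were −1.03 and −0.79 for Atf6, −0.59 and −0.93 for Edem1 and −0.69 and −1.87 for Derl3.

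Taking the batch number as a replicate block raised the count to 13 members (9 higher, 4 lower), among them the 6 above, while 30.3% of all genes passed that fit. The added members were Canx, Hspa5, Ssr2, Sec61a1, Ostc and Rpn1, higher in cKO, and Pdia4, lower. Canx stood at 254 and 261 CPM in control and 339 and 357 CPM in cKO. Ssr2, the TRAP β subunit, was at 80.7 and 74.6 CPM against 109 and 120 CPM, and Pdia4 at 167 and 196 CPM against 120 and 129 CPM. In these genes the groups did not overlap. Hspa5 rose within each batch but overlapped across them, at 465 and 817 CPM in control and 637 and 921 CPM in cKO. Without the block 12 members had both cKO libraries above both controls and 8 had both below, against 30.1% and 28.7% of all genes, and DESeq2 called 7 members (11.7% of its genes).

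Of the degradation genes, 8 of 9 had a log2 fold change below 0 in YFP+ pre-GCB-like cells, the exception being Syvn1 at 42.7 and 41.4 CPM in control and 43.9 and 43.5 CPM in cKO. The same 8 of 9 below 0 were counted in GCB-like cells, where Derl1 was the exception, whereas 3 of 9 were above 0 in plasma cell-like cells. In pre-GCB-like cells all 3 oligosaccharyltransferase genes and 6 of 7 translocon and TRAP genes were above 0, with Sec61b at 456 and 547 CPM in control and 439 and 495 CPM in cKO as the exception. Over all genes of this class 49.6% were above 0. Members with an ERSE or ERSE-II match were 6 above and 4 below 0 (median 0.09), and members without a match 11 above and 10 below (median 0.06).

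The RNA levels of the regulators of these genes did not move together, while their protein levels and activity were not measured here. Atf4, the transcription factor of the PERK branch and of amino acid stress, was at 80.5 and 110 CPM in control and 281 and 368 CPM in cKO YFP+ pre-GCB-like cells (log2 fold change 1.77, SE 0.23, adjusted p = 0.00187, edgeR). Eif2ak3, which encodes PERK, fell from 122 and 67.3 CPM to 34.3 and 23.4 CPM (−1.73, SE 0.30, adjusted p = 0.00628). Ddit3, which encodes the stress factor CHOP, fell from 14.2 and 17.6 CPM to 8.12 and 7.57 CPM (−1.01, SE 0.22, adjusted p = 0.0173). Atf4 and its known target Ddit3 thus went opposite ways in these libraries. Xbp1 overlapped between the genotypes, at 54.5 and 62.7 CPM in control and 53.2 and 61.7 CPM in cKO (−0.02, SE 0.18, adjusted p = 0.951).

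Among the other genes of the pathway, 14 of 99 tested passed in YFP+ pre-GCB-like cells, 9 higher and 5 lower. That share is near the one given above for all genes of this class. Bbc3, which encodes the death protein PUMA, rose from 2.75 and 8.64 CPM to 18.9 and 22.6 CPM (1.96, SE 0.38, adjusted p = 0.0106, edgeR). Nupr1, a stress-induced chromatin protein, had 0 UMIs of 6561747 in control and 145 in cKO (2.25 CPM over the group), at least 4.93-fold higher when control is set at a floor of 3 counts over the group (0.457 CPM). Ero1lb, an oxidase that recharges disulphide isomerases, fell from 127 and 125 CPM to 43.8 and 38.7 CPM (−1.61, SE 0.18, adjusted p = 0.000866), and Creb3l2, an ER-bound factor of secretory genes, from 13.7 and 6.84 CPM to 3.46 and 2.10 CPM (−1.93, SE 0.39, adjusted p = 0.0129). Without control YFP+ replicate 1 the change was 1.28 for Bbc3 and −1.29 for Creb3l2, and without control YFP+ replicate 2 it was 2.96 for Bbc3.

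Eif3e itself fell in YFP+ pre-GCB-like cells from 256 and 292 CPM to 149 and 159 CPM (−0.83, SE 0.18, adjusted p = 0.0167, edgeR), and the call was lost without cKO YFP+ replicate 1 (adjusted p = 0.0989) or replicate 2 (0.0857). In the other YFP+ classes Eif3e did not pass the test. Eif3e stood at 102 and 137 CPM in control and 116 and 122 CPM in cKO plasma cell-like cells (−0.0089, SE 0.27, adjusted p = 1.000). In GCB-like cells it was at 246 and 314 CPM against 264 and 318 CPM (0.056, SE 0.24, adjusted p = 0.998). In naive B-like cells it was at 188 and 259 CPM against 289 and 401 CPM (0.62, SE 0.31, adjusted p = 0.534). The genotype effect on Eif3e was higher by 0.86 (adjusted p = 1.53e-04) in GCB-like and by 0.80 (adjusted p = 0.0124) in plasma cell-like than in pre-GCB-like cells. In the plasma cell-like and GCB-like classes, where 0 members were called, these counts therefore did not show a lower Eif3e RNA level. Whether the cells of these libraries had lost the floxed stretch was not measured here. At the protein level, the paper reports loss of eIF3e by western blot in reporter-positive B lymphocytes. The blotted cKO animals were older than those sequenced, and that blot did not separate the classes.

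**Figure D3:**
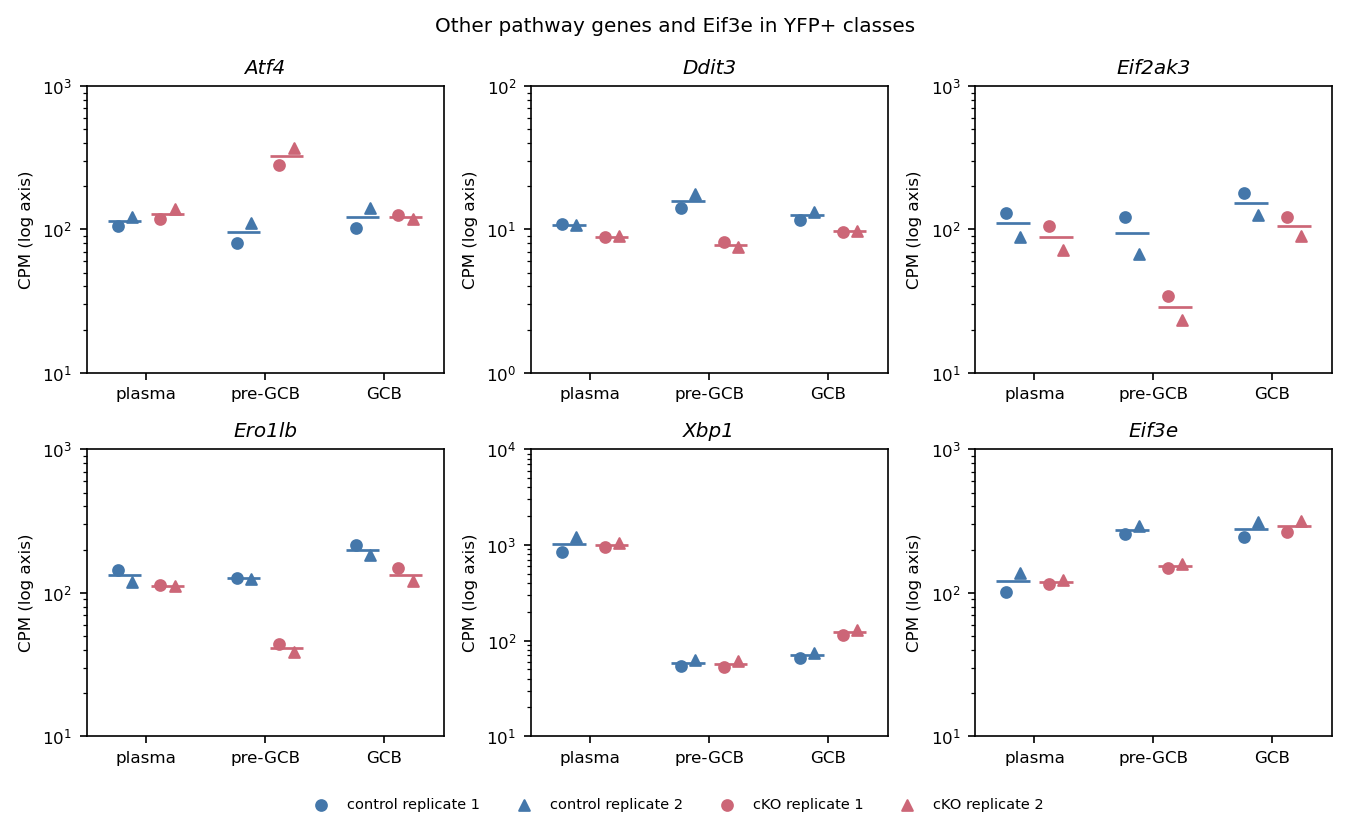
Level of Atf4, Ddit3, Eif2ak3, Ero1lb, Xbp1 and Eif3e in YFP+ plasma cell-like, pre-GCB-like and GCB-like cells, in TMM-scaled CPM on log axes. Points are libraries (circle, replicate 1; triangle, replicate 2) and bars are means of 2 libraries. In pre-GCB-like cells cKO lies above control for Atf4 and below it for Ddit3, Eif2ak3, Ero1lb and Eif3e, whereas Xbp1 is separated in GCB-like cells (66.0 and 74.8 CPM in control, 115 and 130 CPM in cKO).

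The pre-GCB-like counts depended on which cells and libraries entered. Without cKO YFP+ replicate 2 0 members passed (8.52% of all genes), and without cKO YFP+ replicate 1 3 passed (13.4%). The class joins a cycling cluster of deeper cells, which held 39.3% and 34.1% of it in control and 51.9% and 61.9% in cKO, and a second cluster: the cycling one alone gave 8 called members (Atf6, Calr, Canx, Creld2, Derl3, Edem1, Pdia4 and Sec11c) against 26.7% of all genes, and the other alone gave 1 (Derl3) against 1.75%, with Creld2 at −0.06. When classes were defined in the control libraries and carried over to cKO cells, 1 member passed (Derl3, −1.74, adjusted p = 0.0299) against 1.53% of all genes, and the class then held 606 and 669 cKO cells in place of 1408 and 1463. Under that definition Atf4 was at 1.18 (adjusted p = 0.184), Eif2ak3 at −1.56 (0.0848), Ero1lb at −0.94 (0.340), Ddit3 at −0.71 (0.523) and Eif3e at −0.37 (0.865), so none of these calls held. Median UMIs per cell of the class were 10937.5 and 6963 in control and 15825 and 18503 in cKO, summed markers of cycling cells (12 genes) 5538 and 5129 CPM of all UMIs against 4011 and 3659 CPM, and summed markers of T cells (7 genes) 5.84 and 6.09 CPM against 48.4 and 55.8 CPM. Thy1 made up 39.6 and 51.9 CPM of the latter, while Cd3e was at 0.576 and 0.0287 CPM. The part of depth and of these markers in the differences was not tested.

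In YFP+ GCB-like cells 0 of 40 members passed the test, 1 of them at an unadjusted p under 0.05, while 1.18% of all genes passed, and DESeq2 also called 0 (1.93% of its genes). Fold changes were above 0 for 24 members and below 0 for 16 (median 0.09 beside −0.01 over all genes). With the replicate block 1 member passed (6.66% of all genes): Atf6, at 77.1 and 65.2 CPM in control and 54.6 and 47.4 CPM in cKO. Its log2 fold change was −0.48, and its adjusted p 0.0467 with the block against 0.554 without. Ern1 was at 4.55 and 2.92 CPM against 6.28 and 4.49 CPM (0.56, SE 0.37, adjusted p = 0.853) and overlapped between genotypes. Edem3, a mannosidase of ER-associated degradation, was at 39.2 and 21.0 CPM against 28.6 and 18.0 CPM (−0.35, SE 0.32, adjusted p = 0.967) and also overlapped. Altogether 9 members had both cKO libraries above the controls and 8 below, against 16.8% and 18.7% of all genes. Leaving out control YFP+ replicate 2 gave 2 called members, against 8.17% of all genes.

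Xbp1 in YFP+ GCB-like cells was at 66.0 and 74.8 CPM in control and 115 and 130 CPM in cKO. Both cKO libraries were higher, with a log2 fold change of 0.80 (SE 0.21) and an adjusted p of 0.155, or of 0.000633 with the replicate block. Ddit3 was at 11.7 and 13.3 CPM against 9.64 and 9.73 CPM (−0.37, SE 0.25, adjusted p = 0.853). Atf4 was at 102 and 142 CPM in control and 125 and 119 CPM in cKO, with the cKO values inside the control range. Of the 98 other pathway genes tested 0 passed, 5 at an unadjusted p under 0.05. When classes were defined in control libraries, 900 and 713 cKO cells were GCB-like in place of 372 and 215, 11 members passed (9 higher, 2 lower) with 24.7% of all genes, and the Xbp1 fold change was 0.01.

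The genotype effects were then compared between classes of the same YFP+ libraries, with the library as a block. Between GCB-like and pre-GCB-like cells 8 of 40 members differed in their genotype effect, against 11.9% of 13288 genes, 4 with a higher and 4 with a lower log2 fold change in GCB-like cells (6.17% and 5.76% of genes). Higher in GCB-like cells were the effects on Derl3, by 1.10 (SE 0.29, adjusted p = 0.0361, edgeR), and on Edem1, Pdia4 and Atf6, by 0.68, 0.51 and 0.42. Lower were those on Sec11c, by −0.71 (SE 0.14, adjusted p = 0.00208), and on Calr, Sec61a1 and Creld2, by −0.59, −0.57 and −0.55. In GCB-like cells Edem1 was at 87.8 and 105 CPM in control and 93.9 and 89.8 CPM in cKO, and Calr at 291 and 280 CPM against 372 and 271 CPM, with the genotypes overlapping in both genes.

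Between plasma cell-like and pre-GCB-like cells 4 members differed, 1 with a higher and 3 with a lower effect in plasma cell-like cells, against 7.31% of 12691 genes (4.45% higher and 2.86% lower). Edem1 had the higher effect in plasma cell-like cells, by 0.74 (SE 0.18, adjusted p = 0.0203, edgeR). Sec11c, Creld2 and Sec61a1, the channel-forming subunit, had the lower one, by −0.93 (SE 0.19, adjusted p = 0.00621), −0.87 and −0.66. In plasma cell-like cells Edem1 was at 625 and 716 CPM in control and 615 and 732 CPM in cKO, and Sec11c at 1146 and 1722 CPM against 1237 and 1637 CPM, with the genotypes overlapping in both genes. Between plasma cell-like and GCB-like cells 0 members differed by the adjusted test (2.32% of genes), and 9 had an unadjusted p under 0.05. The share of all genes at that unadjusted p is not given, so the 9 are not read as an excess. Of the members, 34 of 40 had the lower log2 fold change in plasma cell-like cells (median −0.25 beside −0.07 over all genes). No share of all genes in that direction is given, so the 34 are not read as an excess. The members with the widest difference there were Ern1, Ssr1 and Rpn2, at −0.63, −0.62 and −0.59 (adjusted p = 0.300, 0.129 and 0.225, edgeR). Without immunoglobulin genes the differences shifted by a median of 0.08 over all genes, and these members went to −0.54, −0.55 and −0.51. These 3 comparisons share libraries, and without the library block 0 members passed in any of them (0.143%, 0.102% and 0.0079% of all genes, in the order given). Leaving out control YFP+ replicate 1 gave 11 called members between plasma cell-like and pre-GCB-like cells (11.2% of all genes) and 3 between plasma cell-like and GCB-like cells (3.46%). Between GCB-like and pre-GCB-like cells 2 were called without cKO YFP+ replicate 2 (5.43% of all genes) and 4 without cKO YFP+ replicate 1 (6.42%). With classes defined in control libraries 11 members differed between GCB-like and pre-GCB-like cells (18% of all genes), of which 3 were among the 8 above, 2 between plasma cell-like and pre-GCB-like cells (2.32%) and 27 between plasma cell-like and GCB-like cells (15.2%), all 27 with the lower effect in plasma cell-like cells. For that setting the share of all genes by direction is not given.

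**Figure D4:**
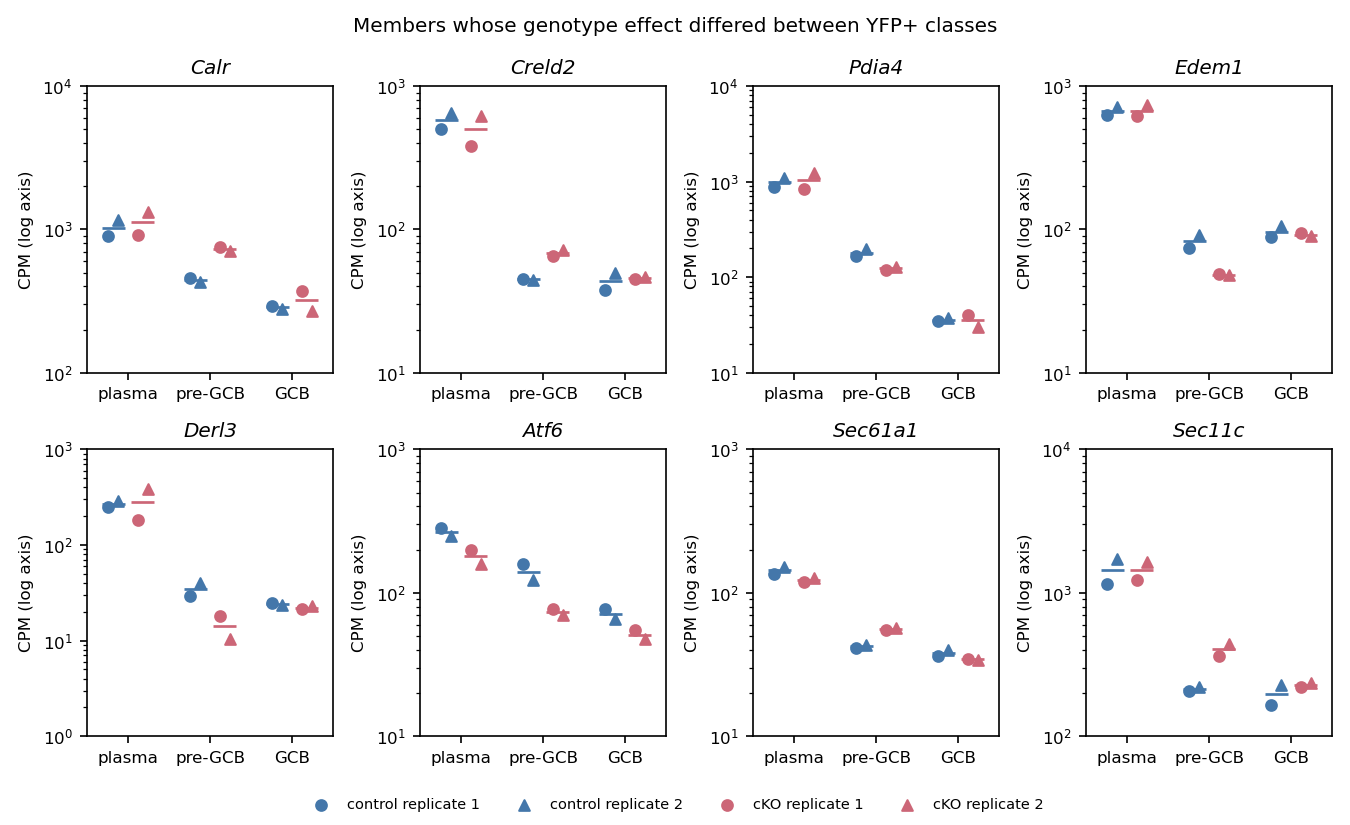
The 8 members whose genotype effect differed between YFP+ classes, in TMM-scaled CPM on log axes, with points for libraries (circle, replicate 1; triangle, replicate 2) and bars for the means of 2 libraries. In pre-GCB-like cells control and cKO are separated in all 8 genes, from Derl3 (29.2 and 39.6 against 17.9 and 10.5 CPM) to Calr (455 and 429 against 750 and 705 CPM). The 8 were chosen by tests that use these pre-GCB-like values, so this separation is not a result of its own. Over all genes of that class cKO lies above control in both libraries, without overlap, in 30.1% and below in 28.7%. In the other 2 classes the genotypes overlap except for Atf6 and Sec61a1 in both and Derl3 in GCB-like cells.

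Of the other pathway genes, Atf4 had a lower genotype effect in GCB-like than in pre-GCB-like cells by −1.77 and in plasma cell-like than in pre-GCB-like cells by −1.64 (adjusted p = 4.77e-07 and 8.79e-05, edgeR). Eif2ak3 and Ero1lb had higher ones, by 1.15 and 1.01 in GCB-like and by 1.36 and 1.35 in plasma cell-like cells. The Xbp1 effect was higher in GCB-like cells than in pre-GCB-like cells by 0.80 (adjusted p = 0.000444) and lower in plasma cell-like than in GCB-like cells by −0.90 (adjusted p = 0.00554). With classes defined in control libraries the GCB-like against pre-GCB-like difference went to 0.19 for Atf4 (adjusted p = 0.624), to −0.32 for Eif2ak3 (0.368) and to 0.03 for Xbp1 (0.960). For Ero1lb it passed the test in the opposite direction, at −0.98 (adjusted p = 1.42e-04). Among the members Calr also passed in the opposite direction, at 0.96 (adjusted p = 2.65e-05), and Edem1 went to −0.38 (0.292). Derl3 kept its direction and call, at 0.96 (adjusted p = 0.0212), as did Pdia4, which widened from 0.51 to 1.61 (adjusted p = 4.24e-12). Under other settings the Pdia4 difference was not called: without doublets (adjusted p = 0.0707), at resolution 0.5 (0.0633) and with no centring (0.131, edgeR). It went to 0.19 without cKO YFP+ replicate 1. The Derl3 difference was 0.86 without control YFP+ replicate 2 and 0.74 without cKO YFP+ replicate 2.

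Plasma cell-like cells of total spleen were few, at 57 and 42 cells in the control libraries and 58 and 98 in cKO. There 35 of 40 members had a fold change above 0, with a median of 0.35 beside −0.01 over the 7583 genes tested, of which 48.8% were above 0. By the test without a block 0 members passed (0.224% of all genes), and 6 had an unadjusted p under 0.05. The share of all genes at that unadjusted p is not given. DESeq2 called 0 as well (0.303%). With the replicate block 8 passed, all higher in cKO, against 2.84% of genes: Hspa5, Hsp90b1, Calr, Manf, Sdf2l1, Dnajb11, Derl1 and Rpn1. In this class 13 members had both cKO libraries above both controls and 0 below, against 15.9% and 16.8% of all genes. Without the block 3 members were called when cKO total replicate 1 was left out (1.63% of all genes), 1 when control total replicate 2 was left out (2.31%) and 0 when either of the other libraries was left out.

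Hspa5 in these total plasma cell-like cells was at 1030 and 1555 CPM in control and 1611 and 3645 CPM in cKO (log2 fold change 1.02, SE 0.40, adjusted p = 0.729, or 0.000546 with the block, edgeR). Hsp90b1 was at 3559 and 5162 CPM against 5404 and 11579 CPM (0.96, SE 0.36, adjusted p = 0.708, or 0.000788). Sdf2l1, a partner of BiP in folding, was at 354 and 563 CPM against 511 and 1197 CPM (0.90, SE 0.44, adjusted p = 0.882, or 0.00131). In all 3 genes cKO was higher within each batch, and cKO total replicate 2 was the highest of the 4 libraries, more than 1 log2 unit above control in batch 2 (1.23 for Hspa5, 1.17 for Hsp90b1 and 1.09 for Sdf2l1). In batch 1 the ratios were 0.65, 0.60 and 0.53. Without cKO total replicate 2 the log2 fold changes went to 0.32 for Hspa5, 0.31 for Hsp90b1 and 0.16 for Sdf2l1, each with an adjusted p of 1.000.

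The signs by role are a description, and a difference between roles was not tested. Signal peptidase genes were 2 above and 2 below 0, with Spcs2 at 595 and 833 CPM in control and 574 and 821 CPM in cKO. Both sensors were below 0, with Ern1 at 69.4 and 65.0 CPM against 72.5 and 60.0 CPM. In both roles each fold change was smaller in size than its SE (−0.03, SE 0.26 for Spcs2 and −0.03, SE 0.25 for Ern1). Members with an ERSE or ERSE-II match had a median log2 fold change of 0.63 and members without a match 0.29, with 0 called in either set. The same medians were −0.06 and −0.08 in YFP+ plasma cell-like cells and 0.06 and 0.07 in YFP+ GCB-like cells. A link between element and fold change was not tested. In total plasma cell-like cells immunoglobulin genes took 36.6% and 38.7% of UMIs in the control libraries and 29.8% and 36.2% in cKO. Outside them the 40 genes summed to 31070 and 40726 CPM in control and 38168 and 59332 CPM in cKO. Xbp1 was at 814 and 1058 CPM in control and 705 and 1190 CPM in cKO. That this class differed in direction between sorts, with 28 of 40 below 0 in YFP+ and 35 above 0 in total libraries, is a description, and the difference was not tested.

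In the other classes of total spleen 0 members passed without a block, and DESeq2 called 0 in each (0.604%, 1.14% and 1.38% of its genes in the pre-GCB-like, GCB-like and naive B-like classes). Total pre-GCB-like cells had 30 of 40 members above 0 (median 0.16), 1 at an unadjusted p under 0.05 and 10 called with the block (8 higher, 2 lower), against 0.371% of all genes without and 7.51% with it. Rpn1, ribophorin I, was at 63.1 and 61.6 CPM in control and 79.9 and 93.5 CPM in cKO (0.48, adjusted p = 0.992, or 0.00334 with the block, edgeR), and Derl3 at 24.8 and 31.5 CPM against 22.6 and 13.3 CPM (−0.65, adjusted p = 0.986, or 0.00911). Sdf2l1 was at 69.7 and 131 CPM against 97.6 and 167 CPM, with the genotypes overlapping. In 8 members both cKO libraries were above both controls and in 2 below, against 14.7% and 13.9% of all genes. Sec11c and Calr were called higher with the block, and Atf6 and Derl3 lower, as they were in YFP+ pre-GCB-like cells. The total and YFP+ sorts were taken as coming from the same mice, so this is not an independent repeat. Atf4 was at 66.6 and 114 CPM in control and 114 and 141 CPM in cKO (0.50, adjusted p = 1.000, or 0.000128 with the block), Xbp1 at 40.6 and 57.5 CPM against 49.2 and 86.4 CPM (0.47, adjusted p = 1.000, or 0.0146), and Ddit3 at 20.2 and 29.6 CPM against 13.8 and 21.4 CPM (−0.50, adjusted p = 1.000).

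Total GCB-like cells had 19 members above and 21 below 0 (median −0.01), 0 at an unadjusted p under 0.05, and 0 called with the block (5.55% of genes) or without (1.79%). Ern1 was at 13.8 and 5.02 CPM in control and 6.78 and 4.21 CPM in cKO, Derl3 at 30.6 and 12.1 CPM against 13.6 and 15.2 CPM, and Dnajc3, a cochaperone of BiP that restrains PERK, at 90.3 and 86.4 CPM against 65.9 and 65.3 CPM. In 8 members both cKO libraries were above both controls and in 9 below, against 19.5% and 18.3% of all genes. Of the 3 named, Dnajc3 alone was separated between genotypes (−0.43, SE 0.21, adjusted p = 0.557, edgeR). Xbp1 was the 1 called gene of the 92 other pathway genes tested: it rose from 52.1 and 64.3 CPM to 122 and 143 CPM (1.20, SE 0.23, adjusted p = 0.0195), with log2 ratios of 1.22 and 1.15 within the batches. Without cKO total replicate 2 it was at 1.08 and not called (adjusted p = 0.225).

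Naive B-like cells were the remaining class. In total libraries 33 of 40 members were above 0 (median 0.24 beside 0.01), 0 passed (0.0789% of genes), 1 at an unadjusted p under 0.05, and 15 passed with the block, all higher in cKO (16.7% of genes). Pdia4 was at 86.8 and 115 CPM in control and 128 and 165 CPM in cKO (0.54, adjusted p = 0.852, or 0.000774 with the block, edgeR), Sdf2l1 at 16.4 and 38.0 CPM against 36.9 and 48.2 CPM (0.65, adjusted p = 0.985) and Derl3 at 0.661 and 1.78 CPM against 2.02 and 2.38 CPM (0.84, adjusted p = 0.970). Without control total replicate 2 Sdf2l1 was the 1 called member (1.39, adjusted p = 0.00764), against 1.85% of all genes, and Derl3 was at 1.74. Xbp1 was at 23.2 and 41.5 CPM against 50.2 and 84.2 CPM (1.06, adjusted p = 0.539, or 1.57e-05 with the block). Both cKO libraries were above both controls in 10 members and below in 2, against 15.5% and 15% of all genes. Different clusters held this class in the genotypes, 1 cluster holding 98.7% and 99.6% of it in control total libraries and 9.71% and 8.71% in cKO. The part of this in the values was not tested.

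YFP+ naive B-like cells had 30 of 40 members above 0 (median 0.27), 0 called (0.754% of genes, and 0 by DESeq2, 2.62%), 1 at an unadjusted p under 0.05, and 8 called with the block, all higher (14.1% of genes). Ssr2 was at 26.8 and 43.0 CPM in control and 46.2 and 70.1 CPM in cKO (0.74, adjusted p = 0.448, or 0.01 with the block, edgeR), and Spcs3, a signal peptidase subunit, at 34.1 and 35.4 CPM against 49.9 and 52.4 CPM (0.56, adjusted p = 0.397, or 0.0212). Ssr4, the TRAP δ subunit, was at 80.3 and 128 CPM against 109 and 181 CPM (0.48, adjusted p = 0.720, or 0.0250), and Xbp1 at 35.6 and 47.0 CPM against 39.6 and 75.9 CPM (0.48, adjusted p = 0.707). Spcs3 and Ssr2 were separated between genotypes and the other 2 overlapped. Of the 40 members, 12 had both cKO libraries above both controls and 3 below, against 20.4% and 18.8% of all genes. Different clusters held this class in control and cKO, 1 cluster holding 96.0% and 98.4% of it in the control libraries and 1.94% and 1.00% in cKO.

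**Figure D5:**
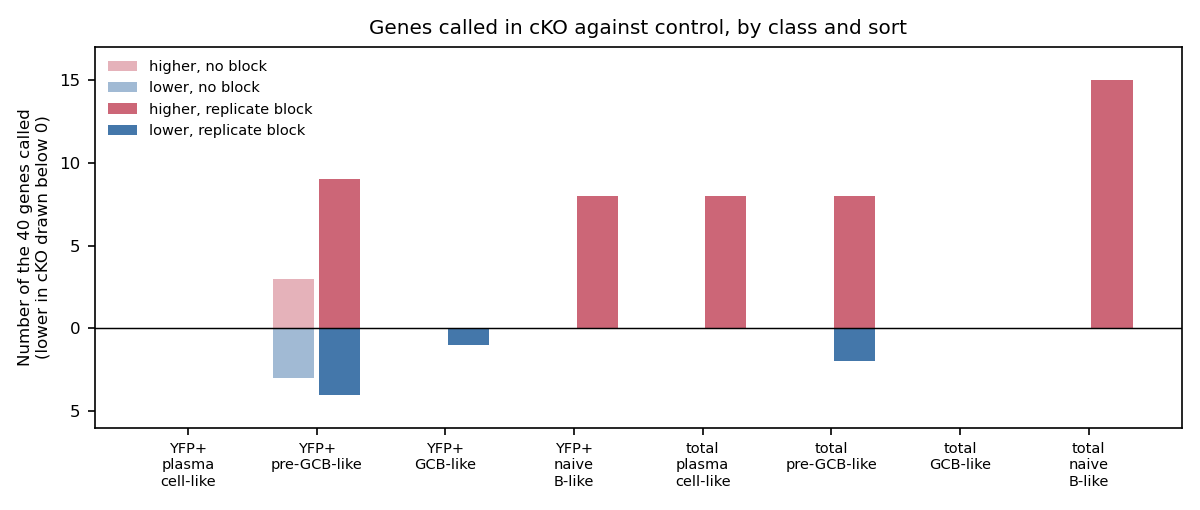
Number of the 40 genes called at an adjusted p of 0.05 by edgeR in each class and sort, without (pale) and with (dark) the replicate block, with genes higher in cKO drawn above 0 and genes lower in cKO below. Without the block calls exist only in YFP+ pre-GCB-like cells (3 higher, 3 lower), where the share of all genes called is near that of the members. With it calls exist in 6 of 8 comparisons, up to 15 in total naive B-like cells. The share of all genes called in each comparison is given in the text, and the counts alone are not a result about the members.

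Sequencing depth bore unequally on the members. In YFP+ plasma cell-like sums each member had at least 74 UMIs in every library, and the 40 together 42510 to 646376 UMIs. In pre-GCB-like sums the least counted member was Ern1 with 14 UMIs in control YFP+ replicate 2, and in total GCB-like sums 6 and 11 members of the control libraries had under 50 UMIs. In YFP+ GCB-like sums Ern1 had 18 to 128 UMIs. The p-values rest on 2 pooled libraries per group. Without a block they measure the spread between these libraries, any shift between batches included. With the replicate block they measure the spread left after batch, and with the library block the spread left after library.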

How the data were processed

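Raw UMI counts per gene and cell, as deposited by the authors for 8 libraries and not normalized, were the only values used. Libraries were made with a 3′ droplet kit (SeekOne DD), and per the labels the builds GRCm38 and mm10 were named. Which aligner was used: not given in the sources used here. By the methods, the authors' filter removed cells with at most 200 UMIs, at most 100 genes or over 10% mitochondrial UMIs. Applied again, it removed 263 of 83967 barcodes, and no barcode held under 500 UMIs. Totals were 71894780 to 105224903 UMIs per library. The SEs and p-values come from fits that include the spread between the pooled libraries, while the bound given for Nupr1 rests on counts only.

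Cells were clustered on 2000 variable genes (30 principal components centred within batch, 20 neighbours, Leiden resolution 1 in igraph 0.11.9, Python 3.11.15) without the pathway genes. Doublets were kept, and leaving out the top 5% of cells per library by a doublet score (5.09% to 5.86% with ties) was an alternative. Clusters were named from fixed markers. UMIs were summed per library and class (at least 20 cells) and tested within a sort with edgeR 4.0.16 (R 4.3.3: TMM, filterByExpr, quasi-likelihood test, Benjamini-Hochberg over all genes, threshold 0.05). Interaction models had the library as a block. Scripts were tested on simulated data. DESeq2 1.42.0, the replicate block, other filters, scalings, resolutions and class definitions, and leaving out each library were alternatives.

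The labels number the batches, so same-numbered libraries pair: their deviations correlated at 0.243 to 0.608 in the 8 comparisons. Members and lists were chosen with earlier results of these data known. Named were called members, otherwise the 3 with the largest absolute fold change, the leading member of each role, of the other pathway genes the 3 called with the lowest p in each direction, and Xbp1, Atf4 and Ddit3. Genes called only with the block, and members given as exceptions, were named after their values were seen. Counts at an unadjusted p under 0.05 have no share of all genes beside them and are not read as an excess. Ddit3 has 2 identifiers, of which 1 holds 0 UMIs and was not used.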

Additional observations from a re-analysis of the deposited data

Results flagged for a closer look

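The test of the difference in genotype effect between YFP+ classes passed for the following genes, given as the difference in log2 fold change (cKO over control) by edgeR. Between plasma cell-like and pre-GCB-like cells it was −0.93 for Sec11c, 0.74 for Edem1, −0.66 for Sec61a1 and −0.87 for Creld2. Among the other pathway genes it was −1.64 for Atf4, 1.35 for Ero1lb, 1.36 for Eif2ak3, 0.75 for Stt3b (a catalytic subunit of the oligosaccharyltransferase), −0.86 for Tmed2 (a cargo receptor of ER-to-Golgi transport) and −0.79 for Selenos (a selenoprotein of ER-associated degradation).

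Between GCB-like and pre-GCB-like cells it was 0.68 for Edem1, −0.71 for Sec11c, −0.59 for Calr, −0.57 for Sec61a1, −0.55 for Creld2, 1.10 for Derl3, 0.51 for Pdia4 and 0.42 for Atf6. For the other pathway genes it was 0.80 for Xbp1, −1.77 for Atf4, 1.15 for Eif2ak3, 1.01 for Ero1lb, −0.81 for Erp44 (which retrieves client proteins to the ER) and −1.72 for Bbc3. Without control YFP+ replicate 1 the Bbc3 difference was −1.11, and without control YFP+ replicate 2 it was −2.49. Between plasma cell-like and GCB-like cells it was −0.90 for Xbp1 and −1.5 for Sec24d, a coat subunit of transport vesicles. These comparisons share libraries, and several of these values turned with the class definition, as given next. The calls were lost without cKO YFP+ replicate 1 for Sec24d (−1.09), Tmed2 (−0.74) and Selenos (−0.74), and without cKO YFP+ replicate 2 for Stt3b (0.57). Member calls between GCB-like and pre-GCB-like cells were also lost. Without cKO YFP+ replicate 2 these were Sec11c (−0.60), Calr (−0.39), Sec61a1 (−0.53), Creld2 (−0.48), Derl3 (0.74) and Atf6 (0.47). Without cKO YFP+ replicate 1 they were Sec61a1 (−0.62), Creld2 (−0.62), Pdia4 (0.19) and Atf6 (0.36). Without control YFP+ replicate 2 they were Sec61a1 (−0.50), Creld2 (−0.32), Derl3 (0.86) and Pdia4 (0.48), and without control YFP+ replicate 1 Atf6 (0.39).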

How the results depend on the processing

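With the replicate block the number of called members went to 1, 13 and 8 in YFP+ GCB-like, pre-GCB-like and naive B-like cells and to 8, 10 and 15 in total plasma cell-like, pre-GCB-like and naive B-like cells, and stayed at 0 in YFP+ plasma cell-like and total GCB-like cells. With classes defined in control libraries it was 11 in YFP+ GCB-like and 1 in YFP+ pre-GCB-like cells, and for the differences between classes 2 for plasma cell-like against pre-GCB-like (2.32% of all genes), 11 for GCB-like against pre-GCB-like (18%) and 27 for plasma cell-like against GCB-like cells (15.2%). YFP+ pre-GCB-like cells gave 2 at resolution 1.5 and 1 in the non-cycling cluster alone, and total plasma cell-like cells gave 2 with no filter on low counts. Without the library block the differences of pre-GCB-like cells from the other 2 classes gave 0 and 0. For plasma cell-like against pre-GCB-like cells, 2 were called without doublets, at resolution 0.5, at resolution 1.5 and with no centring, and for GCB-like against pre-GCB-like cells 5, 5, 4 and 4. Counts given here or in the next paragraph without a share of all genes describe the setting and are not a result about the members.

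Leaving out each library gave 0 to 2 called members in YFP+ GCB-like, 0 to 8 in YFP+ pre-GCB-like, 0 to 3 in total plasma cell-like and 0 to 1 in total naive B-like cells. For the differences it gave 3 to 11 for plasma cell-like against pre-GCB-like, 2 to 9 for GCB-like against pre-GCB-like and 0 to 3 for plasma cell-like against GCB-like cells. Outside immunoglobulin genes the mean summed plasma cell-like levels were 41281 CPM in control YFP+, 35941 in cKO YFP+, 35898 in control total and 48750 in cKO total libraries.

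The direction turned in GCB-like against pre-GCB-like cells with classes defined in control libraries, to 0.96 for Calr and −0.98 for Ero1lb, which passed the test in the opposite direction (adjusted p = 2.65e-05 and 1.42e-04), and to −0.38 for Edem1, 0.26 for Sec61a1, 0.32 for Creld2, −0.26 for Ddit3, 0.19 for Atf4, −0.32 for Eif2ak3 and 0.53 for Bbc3. Under that setting Derl3 in total pre-GCB-like cells was at 0.021. In the non-cycling cluster of YFP+ pre-GCB-like cells Creld2 was at −0.059 and Bbc3 at −0.0054. Over the libraries left out, Edem3 in YFP+ GCB-like cells ran from −0.72 to 0.18 (without control YFP+ replicate 1), Xbp1 in YFP+ naive B-like cells from −0.059 (without cKO YFP+ replicate 2) to 0.84, Ern1 and Derl3 in total GCB-like cells from −1.36 to 0.10 and from −1.10 to 0.26 (both without control total replicate 1), and Sdf2l1 in total pre-GCB-like cells from −0.040 (without cKO total replicate 2) to 0.93. The cause was not tested. Of the values of single genes under an alternative, 823 kept direction and side of the threshold, 139 lost the call, 32 gained it and 17 turned.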
